A study of Danio rerio with 28 samples.

Results

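The biliary epithelial cells (BECs) that remained in the zebrafish liver at 7 days post ablation (dpa) of its hepatocytes were compared with the BECs of mock-treated fish, to ask which transcripts still differed at the end of the sampled regeneration. A called cell was a barcode whose total of unique molecular identifiers (UMIs, each standing for 1 captured transcript) exceeded the mean of its library. A called cell was a BEC if anxa4, lgals2b, epcam, tm4sf4 and cdh1 together gave at least 3 UMIs and at least 0.4% of its UMIs, and if apoa1b, apoa2, fabp10a and tfa together stayed under 2%. By this rule 51 of the 2506 called cells at 7 dpa were BECs, with 22, 13 and 16 cells in the libraries labelled replicate 1, 2 and 31, against 480 of 2689 in mock, with 154, 155 and 171 cells in replicates 1, 2 and 3. The whole series held 25842 called cells. Raw UMIs were summed over the BECs of each library, so the comparison was of 3 sums against 3.

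All fish were adults that carried a Cre driver, Tg(Tp1:CreERT2), a Cre reporter, Tg(-3.5ubb:LOXP-EGFP-LOXP-mCherry), and the hepatocyte ablation transgene Tg(fabp10a:CFP-NTR), and every library of both groups was made from liver cells sorted as live, nucleated and mCherry+. The Tp1 element answers to Notch signalling and drives an inducible Cre that in the liver is active in BECs, so 4-hydroxytamoxifen turned BECs and everything descended from them from EGFP to mCherry. The fabp10a promoter drives a nitroreductase in hepatocytes, which die when the fish are bathed in metronidazole. The 7 dpa fish had been ablated in this way, whereas the mock fish had not. Because descendants keep the label, the 7 dpa sort also held hepatocytes, and the BECs described here are the labelled cells that still met the BEC rule. The labels give neither a day for the mock libraries nor the fish behind each library. P-values therefore measure a spread between libraries, which may be technical. It was estimated jointly over the 21 sums of all mCherry+ states, not over these 6 alone. Ablation and any difference in sampling day cannot be told apart.

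BECs line the ducts that carry bile out of the liver. They adjust its water, chloride and bicarbonate through channels such as cftr and aquaporins, with the sodium gradient kept by the sodium-potassium ATPase, and they hold their shape through keratins 8 and 18, a cortical actin and myosin network and tight junctions. In zebrafish they can also act as a source of new hepatocytes when most hepatocytes are lost.

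The depth of the groups differed. The 7 dpa libraries held 3709972 to 4194019 UMIs and their 51 BECs 80954 UMIs in all, against 926798 to 1033711 UMIs per mock library and 405674 UMIs in 480 mock BECs. A single UMI was therefore worth 28.7 to 46.5 CPM (UMIs of a gene scaled to a common total per library) in a 7 dpa sum and 6.77 to 8.04 CPM in a mock sum, and the minimum for a called cell was 742 to 839 UMIs at 7 dpa and 185.4 to 206.7 UMIs in mock. The most deeply sampled BEC gave 10.1 to 12.3% of the BEC UMIs of its 7 dpa library. No more than 2 called barcodes were shared by any pair of the 6 libraries, and all replicate pairs differed by more than sampling noise. BECs were 2.04 ± 0.559% of called cells at 7 dpa and 17.9 ± 0.451% in mock (SD, n = 3 each), an 8.76-fold lower share, with a two-sided exact permutation p of 0.1, the smallest that 3 against 3 can give. When both groups were restricted to cells of at least 750 UMIs, the shares were 2.04% and 6.43%, a 3.15-fold difference over 51 and 173 cells. With a hepatocyte limit of 1% in place of 2%, 21 BECs remained at 7 dpa and 467 in mock, a 20.8-fold difference, so most 7 dpa BECs lay between these limits. In summed cells, fewer cells of a kind and less RNA of a gene per cell cannot be told apart.

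The cells were chosen by the measured levels of 9 genes, which are therefore given as a description only. anxa4, the annexin used as the zebrafish bile duct marker, stood at 14809, 14830 and 12968 CPM in 7 dpa BECs and at 7818, 7577 and 7503 CPM in mock BECs. The galectin gene lgals2b averaged 9122 CPM at 7 dpa and 4814 CPM in mock, and the adhesion molecule gene epcam 2125 CPM at 7 dpa and 2581 CPM in mock. The tetraspanin-like tm4sf4 averaged 1097 CPM at 7 dpa and 1118 CPM in mock, and the E-cadherin gene cdh1 783 CPM at 7 dpa and 1071 CPM in mock. All 5 were present in every library of both groups. The lowest biliary share of a BEC was 0.677 to 1.12% at 7 dpa and 0.403 to 0.464% in mock, while the highest share of a called cell that missed the limit with 3 UMIs was 0.207 to 0.285% at 7 dpa and 0.334 to 0.395% in mock. The hepatocyte limit alone removed 5, 5 and 6 cells at 7 dpa and 0 in mock. The highest BEC under it held 1.88 to 1.94% hepatocyte-gene UMIs at 7 dpa and 1.51 to 1.89% in mock, and the lowest cell above it at 7 dpa 2.06 to 2.31%. Despite that limit, the apolipoprotein gene apoa1b averaged 1967 CPM in 7 dpa BECs and 167 CPM in mock BECs. In barcodes below the calling limit, taken here as a guide to RNA free in the suspension, it averaged 10089 CPM at 7 dpa and 828 CPM in mock. What these barcodes hold was not tested. As the limit was higher at 7 dpa, its background can include barcodes that would be called cells in mock.

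Levels in these background barcodes are therefore given beside the results for which they were high. Hepatocyte genes beyond the gate and vitellogenins, summed, stood in BECs at 28.5 to 30.4% of their share in background barcodes at 7 dpa, and at 20.3 to 30.4% of it in mock.

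Of 1891 genes with at least 5 UMIs in at least 3 of the 6 sums, 701 (37.1% of those tested) differed between 7 dpa and mock BECs at an adjusted p under 0.05 (edgeR quasi-likelihood test, Benjamini-Hochberg over all 1891). Of these, 99 (5.24%) were higher and 602 (31.8%) were lower at 7 dpa. The balance depended on the filter and on the scaling. The filter counted raw UMIs, and a UMI was worth 28.7 to 46.5 CPM at 7 dpa against 6.77 to 8.04 CPM in mock. A gene high only at 7 dpa therefore needed more CPM to be tested than a gene high only in mock. With sums scaled by TMM over 275 genes present in every sum, the median gene was −1.07 on the log2 scale, against −0.99 with TMM in its default form, −0.62 by library size and −0.42 with DESeq2 size factors. Over the 628 genes with at least 10 UMIs in both groups the median was −0.25, and 0.20 by library size. The split was 105 higher and 540 lower with default TMM, 173 and 254 by library size, and 200 and 170 with DESeq2 size factors. Ribosomal protein genes made up 80 of the 275 scaling genes. Log2 changes use the main scaling unless stated, whereas CPM and fold values are by library size alone. The main scaling factors were 1.16 to 1.26 at 7 dpa and 0.887 to 0.902 in mock. Log2 changes therefore lie lower than the CPM values alone would give, and the 2 can differ in sign. The calls that held under all 4 scalings, 98 higher (5.18%) and 170 lower (8.99%), are called scaling-robust here and lead the account. The main scaling gave the lowest median of the 4, so 98 of its 99 rises held under the others too. Robustness is therefore a limit on falls and says little about rises, and the 2 directions cannot be compared by it. The 7 dpa and mock libraries did not overlap for 95 of those 98 and 169 of those 170, beside 198 (10.5%) higher and 623 (32.9%) lower among all genes tested. Of the 602 falls 131, and of the 170 robust falls 66, had no UMI in any 7 dpa sum. Such genes passed the filter only through mock, where they are high. The same holds for every gene under 5 UMIs in each 7 dpa sum, among them krt94, ccl35.1, cgnb, myl9b, samm50 and fthl28. The calls and p-values of all these genes, and the list counts that include them, are a description and support nothing further. List counts are to be read beside the 31.8% of all genes called lower and the 8.99% robustly lower. Without 7 dpa replicate 1, the library with the most BEC UMIs, 360 genes were called, 75 higher and 285 lower.

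**Figure D1:**
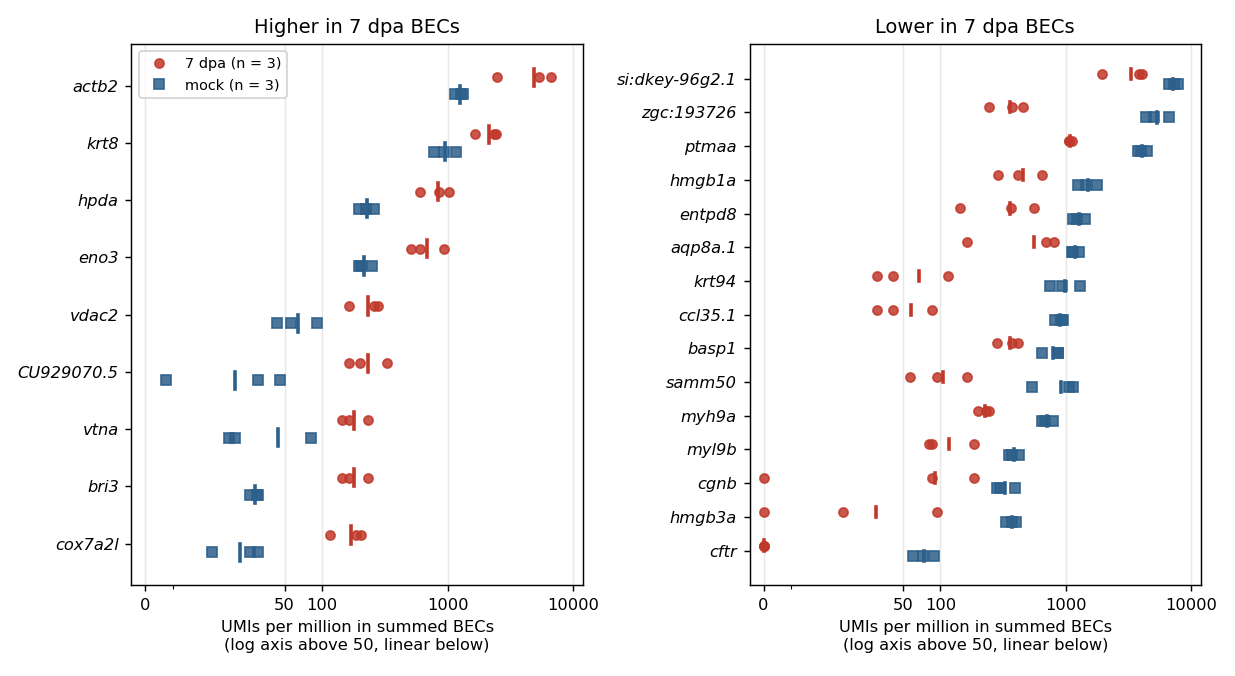
CPM of each library (circles 7 dpa, squares mock, n = 3 each, vertical ticks the means) for genes higher (left) and lower (right) in 7 dpa BECs, on an axis that is logarithmic above 50 CPM and linear below it. For actb2 the 7 dpa libraries sit between 2480 and 6694 CPM and the mock libraries between 1137 and 1325 CPM. For zgc:193726 the 7 dpa libraries sit between 244 and 459 CPM and the mock libraries between 4376 and 6717 CPM.

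Of 29 tested members of a biliary identity list, 1 rose and 17 fell, and 1 and 6 did so under all scalings, with a median of −1.06 beside −1.07 over all genes. Members of this list include markers that the study drew from such libraries, so its direction is not independent evidence. The largest fall was that of zgc:193726, a biliary marker transcript with no assigned name. It stood at 459, 372 and 244 CPM in 7 dpa BECs, against 6717, 4376 and 5061 CPM in mock BECs. The highest 7 dpa library was far below the lowest mock library, a 15.03-fold lower mean (log2 change −4.32, SE 0.44, adjusted p = 1.63e-08), and 11 of the 51 cells at 7 dpa held a UMI of it. entpd8, which encodes an ectonucleotidase that clears extracellular nucleotides, had 144, 558 and 366 CPM at 7 dpa and 1423, 1142 and 1238 CPM in mock. All 7 dpa libraries were lower, with replicate 1 the lowest of them (log2 change −2.42, SE 0.28, adjusted p = 7.41e-08).

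cgnb, a cingulin of the tight junction plaque, had 86.1, 186 and 0 CPM at 7 dpa and 397, 298 and 284 CPM in mock (log2 change −2.36, SE 0.50, adjusted p = 0.000713). basp1, a membrane-bound signalling protein gene, had 373, 418 and 285 CPM at 7 dpa and 869, 644 and 873 CPM in mock, and fell with an adjusted p of 7.25e-06. The unnamed transcript si:dkey-96g2.1 differed less in proportion. It had 3846, 4091 and 1951 CPM at 7 dpa against 7795, 6612 and 7260 CPM in mock, a 2.19-fold lower mean (log2 change −1.58, SE 0.13, adjusted p = 9.45e-11). Both genes, together with krt94 below, were named after their values had been seen. alcama, an adhesion molecule gene, was called lower (adjusted p = 0.00795), but its libraries overlapped, at 287, 46.5 and 40.7 CPM at 7 dpa and 479, 153 and 446 CPM in mock. Without 7 dpa replicate 31 its adjusted p was 0.0516.

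Of the keratins, krt8 was called higher and krt18a.1 was not called. krt8, a type II keratin of simple epithelia, had 2325, 2417 and 1667 CPM at 7 dpa and 1176, 772 and 934 CPM in mock, a 2.22-fold higher mean (log2 change 0.70, SE 0.15, adjusted p = 0.000763), and 46 of 51 cells at 7 dpa held it. With cells thinned to at most 1000 UMIs the change was 0.30 and not called (adjusted p = 0.198). Its partner krt18a.1 had 3386, 3858 and 3577 CPM at 7 dpa and 2381, 1794 and 2449 CPM in mock. These libraries did not overlap in CPM, but the change of 0.24 (SE 0.11) was not called (adjusted p = 0.0785), and it passed the threshold without mock replicate 1 (adjusted p = 0.0478) or without mock replicate 3 (adjusted p = 0.0314). krt94, a type I keratin, passed the filter only through mock, so its call is a description. It had 115, 46.5 and 40.7 CPM at 7 dpa and 1288, 933 and 744 CPM in mock. That is a 14.7-fold lower mean (log2 change −4.18, SE 0.45, adjusted p = 2.57e-08), carried at 7 dpa by UMIs in 4 cells.

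Of 7 tested transport genes, 4 fell and none rose, and 2 of the falls were robust. aqp8a.1, an aquaporin of the bile duct, had 804, 697 and 163 CPM at 7 dpa and 1266, 1126 and 1150 CPM in mock, a 2.13-fold lower mean (log2 change −1.49, SE 0.26, adjusted p = 6.77e-05) with UMIs in 16 of 51 cells. Replicate 31 was the lowest library, and after the authors' background subtraction the change was −0.82 and not called. atp1a1a.1, the catalytic subunit of the sodium-potassium ATPase, had 57.4, 232 and 81.3 CPM at 7 dpa and 374, 475 and 582 CPM in mock (log2 change −2.55, SE 0.41, adjusted p = 1.90e-05). Its accessory subunit gene atp1b1a averaged closer, with 1406, 883 and 1098 CPM at 7 dpa and 1617, 1472 and 1901 CPM in mock, and its fall of 0.97 on the log2 scale (adjusted p = 0.000277) did not hold under all scalings. cftr, the chloride channel of the duct, gave no UMI in any 7 dpa sum and 59.9, 72.4 and 88.0 CPM in mock. Set against a floor of 3 UMIs over the group, this is at least 2.00-fold lower. Uninjured BECs averaged 5.03 CPM, far below mock, and 7 dpa BECs were not called lower than these (adjusted p = 0.504). The call against mock (adjusted p = 0.0124) was not robust to scaling and was lost without 7 dpa replicate 1 (adjusted p = 0.0676), after the authors' background subtraction (0.077) and with a hepatocyte limit of 1% (0.0704).

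Of 26 tested actin and myosin genes, 15 fell and 1 rose, with 5 and 1 robust and a median of −1.24 beside −1.07 over all genes. The non-muscle myosin heavy chain gene myh9a had 201, 232 and 244 CPM at 7 dpa and 681, 652 and 785 CPM in mock (log2 change −2.12, SE 0.32, adjusted p = 9.79e-06). The regulatory light chain gene myl9b had 86.1, 186 and 81.3 CPM at 7 dpa and 427, 354 and 372 CPM in mock, a 3.26-fold lower mean (log2 change −2.24, SE 0.39, adjusted p = 8.12e-05). Both genes encode parts of the same motor. In neither did the groups overlap, as was so in this direction for 32.9% of all genes tested. The filter was passed by myl9b only through mock, so its values are a description. The exception was actb2, a cytoplasmic beta-actin, with 5367, 6694 and 2480 CPM at 7 dpa and 1325, 1271 and 1137 CPM in mock. All 7 dpa libraries were higher, replicate 31 least so, for a 3.90-fold higher mean (log2 change 1.5, SE 0.16, adjusted p = 2.23e-08). Its background level was 251 CPM at 7 dpa and 641 CPM in mock, well below the BECs. msna, which links actin to the membrane, had 3 UMIs at 7 dpa, all in 1 cell of replicate 31, against 86 in mock. That is a ratio of 5.72 in favour of mock (95% counting interval 1.89 to 28.3), while mock background held 344 CPM. Counting intervals here and below take pooled UMIs as independent, so they leave out the spread between cells and libraries. actn4, an actin crosslinker, had 1 UMI against 28, and its call was lost without 7 dpa replicate 1 (adjusted p = 0.18) or replicate 2 (adjusted p = 0.0925).

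Of the next 4 genes, hmgb2a came from the cell cycle list and the others were named after their values had been seen. ptmaa, a prothymosin that binds histones, had 1062, 1116 and 1057 CPM at 7 dpa and 4433, 3998 and 3762 CPM in mock. The libraries were tight within each group, and the 3.77-fold lower mean had the smallest adjusted p among the genes described here (log2 change −2.37, SE 0.13, adjusted p = 4.33e-15). hmgb1a, a high mobility group protein gene, had 287, 418 and 650 CPM at 7 dpa and 1460, 1263 and 1773 CPM in mock, a 3.32-fold lower mean (log2 change −2.24, SE 0.24, adjusted p = 2.57e-08). Its paralogue hmgb2a, a marker of dividing cells, fell too, with 258, 93.0 and 163 CPM at 7 dpa against 816, 587 and 643 CPM in mock (adjusted p = 4.50e-06). hmgb3a gave 3 UMIs against 149, a ratio of 9.91 in favour of mock (95% counting interval 3.33 to 48.6).

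hdac1, a histone deacetylase gene, and lig1, the replicative DNA ligase gene, had no UMI in any 7 dpa sum. In mock BECs hdac1 had 97.3, 137 and 94.7 CPM and lig1 74.9, 129 and 128 CPM, so that they were at least 2.93-fold and 2.99-fold lower at 7 dpa. denr, a translation re-initiation factor gene (at least 2.86-fold lower), and fybb, an adaptor gene of blood cells in mammals (at least 2.86-fold lower), were likewise at 0. samm50, which inserts proteins in the outer mitochondrial membrane, was not at 0 but fell 8.74-fold, to 57.4, 93.0 and 163 CPM at 7 dpa against 539, 1054 and 1143 CPM in mock (log2 change −3.66, SE 0.43, adjusted p = 1.46e-07). Few cell cycle genes reached the filter, 7 of 50 listed. Of these 3 fell, none rose, and hmgb2a alone was robust.

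Of 22 tested proteasome subunit genes, 12 fell and none rose, 4 of them robustly, with 5 of the 22 at 0 at 7 dpa and a list median of −2.04 beside −1.07 for all genes. The 47 listed genes held 78 UMIs in all at 7 dpa and 1038 in mock, so tested members passed the filter mostly through mock. These counts and the median are therefore a description. The proteasome degrades ubiquitin-tagged proteins, and the listed subunits together made 0.0918 to 0.107% of BEC UMIs at 7 dpa and 0.234 to 0.273% in mock. psmc1a, an ATPase subunit of its regulatory particle, had no UMI at 7 dpa and 119.8, 169 and 284 CPM in mock, at least 5.25-fold lower. psmc2 (at least 1.53-fold lower) and psmd4b (at least 1.66-fold lower) were also at 0. Without 7 dpa replicate 1 their adjusted p-values were 0.0593 and 0.0601.

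Of 22 heat shock and chaperone genes, 12 fell, 8 robustly, and none rose, with a median of −0.96. hsp70.1, an inducible chaperone gene, had 2468, 2371 and 2764 CPM at 7 dpa and 4478, 3893 and 3931 CPM in mock, a 1.62-fold lower mean (log2 change −1.15, SE 0.14, adjusted p = 1.75e-07). hsp70.2 had 4047, 4463 and 4634 CPM at 7 dpa and 6687, 6097 and 6488 CPM in mock. These genes have near-identical copies among which reads may be split, so the division between them is uncertain. hsp90aa1.1, the stress-inducible HSP90 gene, had 86.1, 93.0 and 40.7 CPM at 7 dpa and 389, 386 and 365 CPM in mock. hsph1, a partner of HSP70, had 0, 139.5 and 40.7 CPM at 7 dpa and 382, 346 and 534 CPM in mock. For both the mock background was higher than mock BECs, at 923 and 1610 CPM, and so was the list as a whole, at 6.85 to 7.14% of UMIs in mock background against 5.43 to 5.85% in mock BECs. After the authors' background subtraction the log2 changes were −0.64 for hsp70.1 (adjusted p = 0.0344), −0.36 for hsp70.2 (0.116), −1.43 for hsph1 (0.354) and −1.03 for hsp90aa1.1 (0.284), so that hsp70.1 alone of these 4 was called. The part of free RNA in these falls was not tested.

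The chemokine gene ccl35.1 had 86.1, 46.5 and 40.7 CPM at 7 dpa and 816, 917 and 947 CPM in mock, a 15.5-fold lower mean (log2 change −4.30, SE 0.45, adjusted p = 2.23e-08). At 7 dpa it was seen in 5 of 51 cells. Mock background held 413 CPM, less than mock BECs. nfkbiaa, an inhibitor and target of NF-kB, had 57.4, 186 and 325 CPM at 7 dpa and 1266, 836 and 825 CPM in mock, where the background was about as high, at 890 CPM. Of 13 tested inflammatory genes, 5 fell (3 robustly) and none rose. The share called lower was near the 31.8% of all genes, and the robust share was above the 8.99% of all genes. Of the robust falls, mif and ccl35.1 passed the filter only through mock, so this count is a description. ccl19a.1, another chemokine gene, was called lower (adjusted p = 0.00944), but not without 7 dpa replicate 1 (adjusted p = 0.114).

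Of 18 interferon and antigen presentation genes, 9 fell (5 robustly) and none rose, and these moved with markers of blood cells. cd74a, the MHC class II invariant chain, had 373, 46.5 and 163 CPM at 7 dpa and 1483, 1158 and 1468 CPM in mock BECs, with 104 CPM in 7 dpa background against 2556 CPM in mock background. The MHC class II gene mhc2a had no UMI at 7 dpa (at least 3.59-fold lower), and the same held for the leukocyte genes ptprc (at least 2.79-fold lower) and srgn (at least 3.06-fold lower). Mock background held 210 CPM of mhc2a, 556 CPM of ptprc and 244 CPM of srgn, each more than the BECs of mock. The whole macrophage list made 0.0203 to 0.0459% of UMIs in 7 dpa BECs and 0.180 to 0.201% in mock BECs, with 21 of its 24 genes at 0 at 7 dpa. In background barcodes it made 0.0182 to 0.0214% at 7 dpa and 0.374 to 0.383% in mock. The lymphocyte list made 0 to 0.0115% in 7 dpa BECs, with 25 of 27 genes at 0, and 0.0412 to 0.0515% in mock BECs, and all 15 neutrophil genes were at 0 at 7 dpa. The insulin gene ins had 1 UMI at 7 dpa and 417 in mock, where the pancreatic list made 0.109 to 0.212% of BEC UMIs and 0.324 to 0.452% of background UMIs. How much of the falls of immune and antigen presentation genes came with these cells' RNA was not tested.

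Ferritin genes close the falls. Of 7 iron and heme genes, 4 fell (2 robustly) and none rose. The ferritin heavy chain-like gene fthl28 had 57.4, 46.5 and 40.7 CPM at 7 dpa and 232, 233 and 237 CPM in mock (log2 change −2.69, SE 0.49, adjusted p = 0.000123). fthl30 had 86.1, 46.5 and 0 CPM at 7 dpa and 269.6, 314 and 318 CPM in mock. As members of a multigene family, their separate levels are uncertain.

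Some of the largest falls rested on a few mock cells. chia.2, an acidic chitinase gene, and fabp2, the intestinal fatty acid binding protein gene, had 0 and 2 UMIs over the 7 dpa BECs and 280 and 286 UMIs over the mock BECs. The lipid transport genes apoea (1 UMI at 7 dpa and 294 in mock), apoa1a (1 at 7 dpa and 253 in mock) and fabp1b.1 (2 at 7 dpa and 119 in mock) went the same way. When the 12 mock BECs with at least 3 UMIs over these 5 genes were left out (3, 6 and 3 per library, 0 at 7 dpa), the remaining 468 mock BECs kept 12 of the 280 chia.2 UMIs, 12 of 286 for fabp2 and 15 of 294 for apoea. The uncharacterised wu:fb18f06 and C1H4orf33 kept 7 of 66 and 6 of 54. By contrast BX855618.1, an unnamed transcript with 742 mock UMIs, kept 741, and CR762483.1 kept 229 of 230. BX855618.1 had 57.4, 0 and 0 CPM at 7 dpa and 2456, 1311 and 1698 CPM in mock, a ratio of 74.0 in favour of mock (95% counting interval 20.4 to 612). zgc:193726 kept 2173 of 2189 UMIs and krt94 395 of 398. This way of leaving out cells was chosen after seeing the data.

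**Figure D2:**
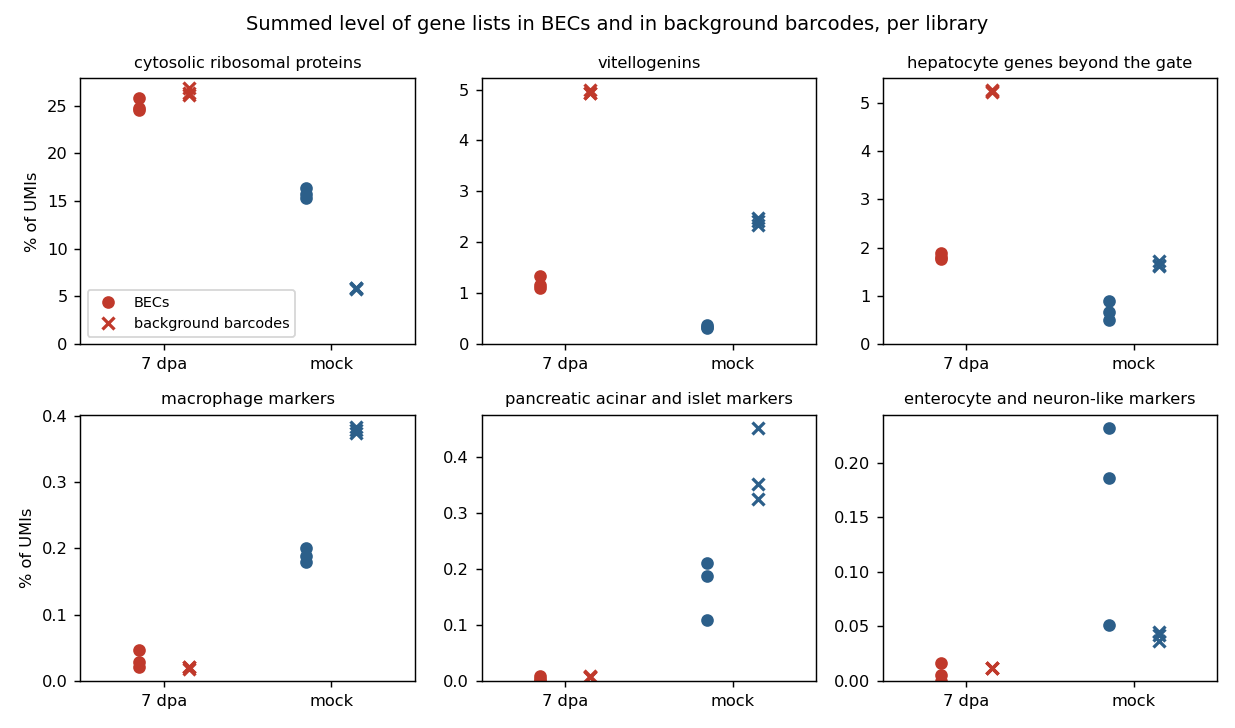
Share of UMIs taken by 6 gene lists in the summed BECs (circles) and in the background barcodes (crosses) of each library, 7 dpa left of mock in each panel, every axis from 0. Ribosomal proteins take 24.5 to 25.7% of 7 dpa BEC UMIs and 15.3 to 16.4% of mock BEC UMIs, with the background at 26.1 to 26.8% at 7 dpa and 5.78 to 5.88% in mock. Macrophage and pancreatic markers are lower at 7 dpa in both BECs and background.

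Ribosomal protein genes formed the largest block of rises. Of 79 tested, 38 were higher at 7 dpa, 37 of them under all scalings, and 3 were lower in the main scaling and none under all, against 5.24% of all genes higher. The direction of the list median did not depend on the scaling, at 0.25 with the main scaling, 0.70 by library size and 0.90 with DESeq2 size factors. The size did, and ribosomal protein genes are themselves part of the main scaling. rplp0, which encodes the stalk protein P0, had 3903, 4230 and 3781 CPM at 7 dpa and 1513, 1705 and 1516 CPM in mock (log2 change 0.88, SE 0.09, adjusted p = 2.57e-08). rps20 had 6256, 4788 and 6586 CPM at 7 dpa and 2591, 2703 and 2788 CPM in mock, and rpl12 3702, 3858 and 3537 CPM at 7 dpa and 1617, 1874 and 1536 CPM in mock. The groups were far apart in each, with adjusted p-values of 1.09e-06 and 3.15e-06. In the 7 dpa background rplp0 held 5967 CPM and rps20 6175 CPM, more than the mean of the 7 dpa BECs. The call of rplp0 was lost with a background profile subtracted from the sums, an alternative added after seeing the data. rps15 had 5080, 4277 and 3699 CPM at 7 dpa and 1962, 1850 and 1840 CPM in mock. Its call was lost after the authors' background subtraction (log2 change 0.39).

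The ribosomal protein list as a whole gave 25.7, 24.8 and 24.5% of BEC UMIs at 7 dpa and 15.3, 16.4 and 15.8% in mock. The background moved further, to 26.1 to 26.8% at 7 dpa against 5.78 to 5.88% in mock. After the authors' background subtraction the shares were 18.6, 16.9 and 16.2% at 7 dpa and 14.1, 15.5 and 14.6% in mock, means of 17.2% and 14.7%, which still did not overlap. With cells of at least 750 UMIs only, the means were 25.0% and 16.4% in 7 dpa and mock BECs. Thinning cells to at most 1000 UMIs, which leaves shallower cells as they are, gave 24.8% at 7 dpa and 15.4% in mock. Of 21 tested ribosome biogenesis genes, 9 fell, 2 robustly, and none rose, with a median of −1.24 beside −1.07 over all genes and a robust share close to the 8.99% of all genes. nop58 and dkc1, of the box C/D and box H/ACA particles that modify ribosomal RNA, gave 1 UMI each at 7 dpa and 59 and 37 in mock, and the call of dkc1 was lost without 7 dpa replicate 1 (adjusted p = 0.0849).

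Calls among glycolytic genes went in both directions. The enolase gene eno3 had 603, 511 and 935 CPM at 7 dpa and 195, 249 and 203 CPM in mock (log2 change 1.21, SE 0.27, adjusted p = 0.00121), but was not called after the authors' background subtraction (log2 change 0.64). gapdh had 1349, 1023 and 894 CPM at 7 dpa against 344, 346 and 325 CPM in mock, with 2915 CPM in 7 dpa background. Its rise of 1.27 turned to −0.56 after that subtraction. pkma, a pyruvate kinase gene, was called lower, with 115, 46.5 and 0 CPM at 7 dpa and 269.6, 265 and 149 CPM in mock. Its call was lost after the authors' background subtraction and with the DESeq2 test. Of 10 tested members of the glycolysis list, 3 rose and 4 fell. Each of the 4 that fell had under 5 UMIs in every 7 dpa sum and passed the filter only through mock. Their calls are therefore a description.

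Of the 99 rises, 35 were above background in all 3 of the 7 dpa libraries. CU929070.5, an unnamed transcript, had 201, 325 and 163 CPM at 7 dpa and 7.50, 48.3 and 40.6 CPM in mock (log2 change 2.34, SE 0.56, adjusted p = 0.00239). The gene si:dkey-23i12.5, annotated by RefSeq as a long non-coding RNA, had 344, 279 and 122 CPM at 7 dpa and 52.4, 48.3 and 33.8 CPM in mock, and lost its call without 7 dpa replicate 1 (adjusted p = 0.0529). hpda, which degrades tyrosine, had 1033, 604 and 854 CPM at 7 dpa and 225, 257 and 196 CPM in mock, with 389.8 CPM in 7 dpa background and 199.9 CPM in mock background (log2 change 1.48, SE 0.23, adjusted p = 1.20e-05). igfbp1a, an insulin-like growth factor binding protein gene, had 1033, 1674 and 447 CPM at 7 dpa and 269.6, 346 and 277 CPM in mock, with 935 CPM in the 7 dpa background, above the BECs of replicate 31. Its call was lost after the authors' background subtraction and with a hepatocyte limit of 1%. Uninjured BECs averaged 1253 CPM, and against these igfbp1a was called lower at 7 dpa (log2 change −0.74, adjusted p = 0.0112).

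Mitochondrial genes were few among the rises. Of 58 nuclear oxidative phosphorylation genes, 2 rose and 13 fell, and the 2 rises but none of the falls were robust. cox7a2l, an assembly factor of respiratory supercomplexes, had 115, 186 and 203 CPM at 7 dpa and 37.4, 24 and 40.6 CPM in mock, but without 7 dpa replicate 31 its adjusted p was 0.0627. cox6b2, a cytochrome oxidase subunit gene, lost its call without 7 dpa replicate 1 (adjusted p = 0.372), without 7 dpa replicate 31 (0.0524) and without mock replicate 1 (0.151). The outer membrane channel gene vdac2 lost its call without 7 dpa replicate 1 (adjusted p = 0.1), without 7 dpa replicate 2 (0.0618) or without mock replicate 3 (0.0561). bri3, a small membrane protein gene, lost it without 7 dpa replicate 2 (adjusted p = 0.0562). The translation factor gene eif4a1b did so without 7 dpa replicate 1 (adjusted p = 0.206), 7 dpa replicate 31 (0.147) or mock replicate 3 (0.185). vtna, a vitronectin gene, was above 0.05 when any library other than mock replicate 3 was left out, at 0.065 to 0.124.

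Hepatocyte and egg yolk genes were higher in 7 dpa BECs too, but below the background of the same libraries. Of 32 tested hepatocyte genes outside the gate, 16 rose and 4 fell, all robustly, with a median of 1.39, and all 4 that fell are the genes named above with the 12 mock cells. Of the 99 rises, 38 were at or below background in all 3 of the 7 dpa libraries. apom, which encodes an apolipoprotein of plasma, had 316, 372 and 325 CPM in 7 dpa BECs and 15, 8.0 and 20.3 CPM in mock BECs, with 1287 CPM in 7 dpa background and 123 CPM in mock background. C20H6orf58, aqp12 and serpina1l, a homologue of the antitrypsin gene, had changes of 4.84, 3.39 and 3.28 on the log2 scale, with 956, 1035 and 1214 CPM in the 7 dpa background, above every 7 dpa BEC sum. Vitellogenins, the yolk precursors secreted by the liver of females, made 1.1 to 1.34% of 7 dpa BEC UMIs and 0.321 to 0.371% of mock BEC UMIs, and in background 4.93 to 4.98% at 7 dpa and 2.33 to 2.48% in mock. Of 7 tested, 5 rose, among them vtg7 (log2 change 2.72) and vtg6 (2.59), which share sequence with further family members. The part of free hepatocyte RNA in these rises was not tested directly. With a background profile subtracted from the sums, an alternative added after seeing the data, 31 genes in all were higher and 187 lower.

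**Figure D3:**
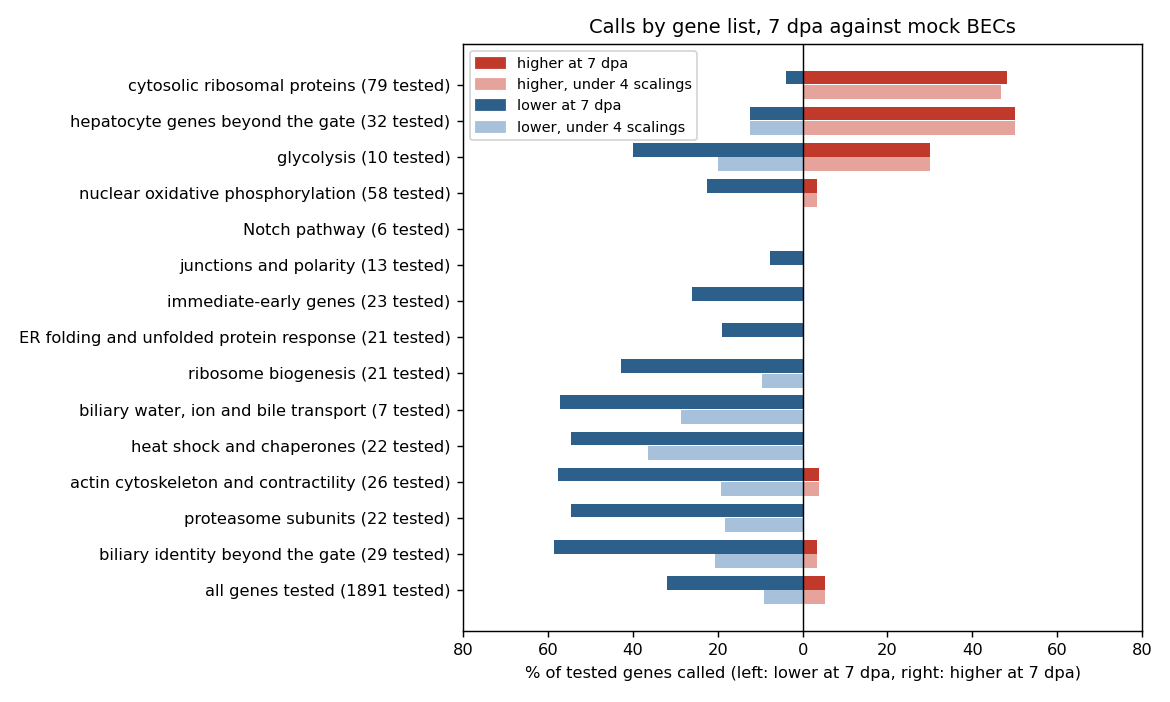
Percent of the tested members of 14 gene lists, and of all 1891 genes, that were called lower (left) or higher (right) in 7 dpa BECs. Dark bars are calls under the main scaling and pale bars calls under all 4 scalings. Ribosomal proteins and hepatocyte genes are the lists with most calls to the right, whereas no Notch pathway gene is called in either direction.

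Several lists gave few or no calls. Of 6 Notch pathway genes, edgeR and DESeq2 called 0, although 3 had an unadjusted edgeR p under 0.05, all in the lower direction. her6, a hairy-related repressor and Notch target, had 517, 558 and 447 CPM at 7 dpa and 487, 458 and 352 CPM in mock (log2 change −0.22, SE 0.27, adjusted p = 0.515). The sign of its change depended on the scaling, at 0.24 by library size. The receptor gene notch3 had 172, 279 and 40.7 CPM at 7 dpa and 157, 72.4 and 122 CPM in mock (adjusted p = 0.989). The biliary transcription factor gene sox9b had 3 UMIs at 7 dpa and 23 in mock (adjusted p = 0.28). At this depth such low genes could differ severalfold without a call, the ratio for sox9b being 1.53 in favour of mock with a 95% counting interval of 0.462 to 7.96. Of 13 junction genes 1 fell, of 21 endoplasmic reticulum folding genes 4, of 19 glutathione and antioxidant genes 3, and of 11 mitochondrially encoded genes 3, with no rise and no robust call in any of these lists.

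Among 23 immediate-early genes 6 fell, none robustly. jun had 1492, 1534 and 1138 CPM at 7 dpa and 1857, 1810 and 2354 CPM in mock (adjusted p = 6.66e-06), and fosab 1464, 1441 and 1707 CPM at 7 dpa and 1909, 1971 and 1935 CPM in mock (adjusted p = 0.00129). Both encode parts of AP-1, and klf6a, an early response zinc finger gene, was likewise lower (adjusted p = 0.0022). The log2 changes of jun and fosab, −0.98 and −0.79, lay between the median of −1.07 over all genes and that of −0.25 over genes with at least 10 UMIs in both groups. Of 11 liver transcription factor genes, 2 fell and neither call was robust. The nuclear receptor gene rxraa (log2 change −1.78, adjusted p = 0.00977) lost its call without 7 dpa replicate 1 (adjusted p = 0.095). cebpb (log2 change −0.86, adjusted p = 0.0318) lost it when any 7 dpa library or mock replicate 1 was left out, at 0.0504 to 0.167.

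The uninjured fish of the same genotype gave a further reference, with the 7 dpa libraries shared between both comparisons. Against these 1038 uninjured mCherry+ BECs, 90 genes were higher and 492 lower at 7 dpa. zgc:193726 averaged 358 CPM at 7 dpa and 2092 ± 117 CPM in uninjured BECs (SD, n = 3), with a log2 change of −2.95 (SE 0.49, adjusted p = 3.75e-05), and krt94 67.3 CPM at 7 dpa and 268 ± 16.9 CPM in uninjured BECs (−2.31, adjusted p = 0.00254). For both genes the mock mean lay above the uninjured mean, a difference that was not tested. ccl35.1 (−4.90, adjusted p = 1.07e-10), aqp8a.1 (−1.48, adjusted p = 4.14e-05), entpd8 (−2.05, adjusted p = 1.29e-06) and ptmaa (−1.42, adjusted p = 1.00e-09) were also lower against uninjured BECs. The genes tested were those of the filter on 7 dpa and mock sums. krt94 and ccl35.1 passed it only through mock, with 6 and 5 UMIs at 7 dpa, so their calls here are again a description. CU929070.5 was higher against these as well, by 1.27 (adjusted p = 0.0277) and eno3 by 1.02 (adjusted p = 0.00188).

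Other genes were called against mock but not against uninjured BECs. actb2 averaged 4847 CPM at 7 dpa and 3179 ± 91.4 CPM in uninjured BECs (log2 change 0.15, adjusted p = 0.429). krt8 averaged 2136 CPM at 7 dpa and 1748 ± 69.4 CPM in uninjured BECs (−0.16, adjusted p = 0.373). si:dkey-96g2.1 stood at 3296 CPM at 7 dpa and 2994 ± 112 CPM in uninjured BECs (−0.31, adjusted p = 0.074), and hmgb1a at 452 CPM at 7 dpa and 340 CPM in uninjured BECs (−0.10, adjusted p = 0.808). Among large falls against mock, BX855618.1 (187 CPM in uninjured BECs, adjusted p = 0.0906), CR762483.1 (adjusted p = 0.0692), psmc1a (0.0699) and lig1 (0.363) were not called against uninjured BECs either. A p above the threshold does not show that these levels were alike. The difference between mock and uninjured BECs, both without ablation, was not tested here. The proteasome list had a median of −0.35 against uninjured BECs beside −0.81 for all genes, and the biliary identity list −1.01.

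**Figure D4:**
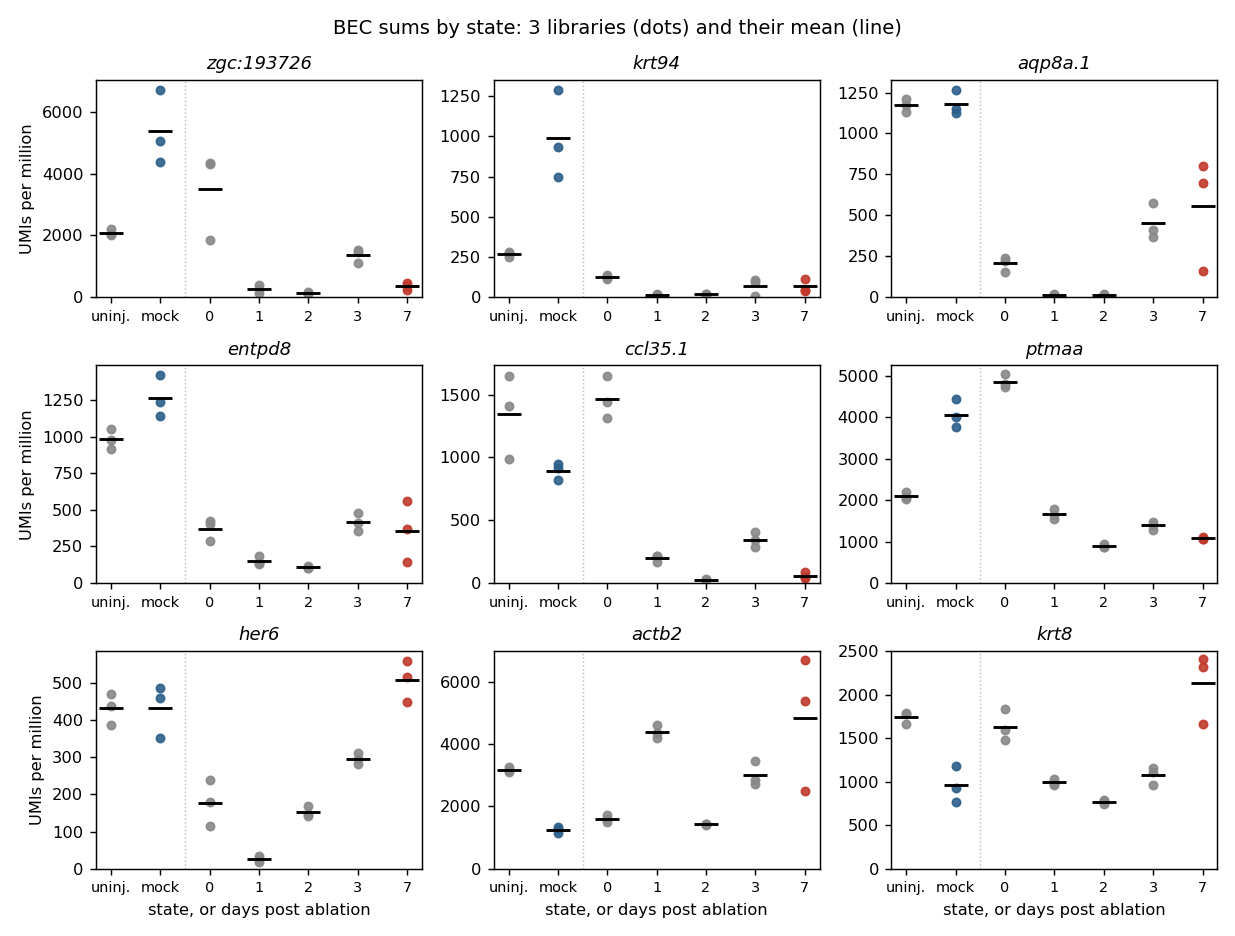
CPM of 9 genes in the BEC sums of every mCherry+ state, uninjured and mock first and then days 0, 1, 2, 3 and 7 after ablation (dots are the 3 libraries, dashes their means, all axes from 0). aqp8a.1 runs from 1172 CPM in uninjured BECs to 14.4 CPM at 2 dpa and 555 CPM at 7 dpa, whereas the means of krt94 stay between 14.9 and 71.5 CPM from 1 to 7 dpa.

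The levels over the whole course place the 7 dpa BECs. The share of BECs among called mCherry+ cells was 28.3% in uninjured fish, 17.9% in mock, and 17.6, 32.9, 60.7, 5.48 and 2.04% on days 0, 1, 2, 3 and 7. At 2 dpa 427, 404 and 456 cells met the biliary criteria, and 427, 401 and 454 also met the hepatocyte limit. At 3 dpa 517, 497 and 539 met the biliary criteria, but only 40, 37 and 63 also met that limit. The drop in share from 2 to 3 dpa is therefore no measure of lost biliary-marker cells. The 3 dpa levels here and below are those of this remainder. aqp8a.1 averaged 1172 CPM in uninjured and 1181 CPM in mock BECs, then 206, 14.8, 14.4, 451 and 555 CPM over these days. entpd8 had a like course, at 983 and 1268 CPM in uninjured and mock BECs and 370, 150, 107, 414 and 356 CPM over the days. For both genes the 3 and 7 dpa means lay above those of 1 and 2 dpa and below those of both references, and the spread at 7 dpa (SD 343 and 207 CPM) covered the difference from 3 dpa.

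The mean of her6 at 7 dpa was no lower than in the references, at 431 CPM in uninjured, 432 CPM in mock and 177, 25.6, 153, 296 and 507 CPM from 0 to 7 dpa. krt94 averaged 127, 14.9, 17.4, 71.5 and 67.3 CPM over the days, and ccl35.1 1466, 200, 25.4, 342 and 57.7 CPM. actb2 was at 1607 CPM at 0 dpa, 4390 CPM at 1 dpa and 1424 CPM at 2 dpa, and stood at 3007 CPM at 3 dpa and 4847 CPM at 7 dpa.

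Lists followed separate courses. Ribosomal proteins took 16.3 and 15.8% of BEC UMIs in uninjured and mock, and 15.8, 25.6, 25.6, 20.4 and 25.0% on days 0, 1, 2, 3 and 7. The proteasome list took 0.108 and 0.255%, and then 0.337, 0.749, 0.841, 0.498 and 0.0974%, and the cell cycle list 0.133 and 0.191%, and then 0.235, 0.341, 0.759, 0.495 and 0.0929%. At 7 dpa both means were thus under those of every earlier day and of both references, whereas the ribosomal proteins stood near their 1 and 2 dpa share. For the proteasome list the difference from uninjured BECs was near the spread of the libraries (SD 0.00827 at 7 dpa and 0.00539 in uninjured). The Notch list took 0.115 and 0.123% in uninjured and mock BECs and 0.0398, 0.0168, 0.0361, 0.0768 and 0.0976% over the days, and ribosome biogenesis genes 0.435 and 0.434%, and then 1.78, 1.73, 1.42, 0.554 and 0.425%. These shares are a description, with no test between days.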

How the data were processed

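Liver cells of adult zebrafish were profiled by Drop-seq, 3 libraries per state. Per the labels and the study's methods, the authors aligned reads with STAR (version 2.5.3, GRCz11) and counted UMIs per gene and barcode, and the deposited values are these raw counts for 5000 barcodes per library. Barcodes above the library mean were called cells, BECs were chosen by the gate given above, and no doublet caller was run. The 9 gate genes were not tested. BEC counts were summed per library. The 21 sums of the mCherry+ states were fitted in edgeR (4.0.16, R 4.3.3) with quasi-likelihood, TMM over genes with at least 5 UMIs in every sum, and Benjamini-Hochberg adjustment at 0.05. Genes needed 5 UMIs in 3 of the 6 libraries. DESeq2 (1.42.0), other scalings, filters, gates, thinning to at most 1000 UMIs and left-out libraries were alternatives. The scripts were tested on simulated data. BECs, gene lists and genes were chosen with earlier results of these data known. Genes named were the 12 largest rises and falls above background and without overlap, from 100 CPM up. Up to 4 called members per list and direction were added, and a few were named after their values had been seen. Those named afterwards include basp1, si:dkey-96g2.1, krt18a.1, krt94, ptmaa, hmgb1a, hmgb3a, samm50, hsp70.1, hsp70.2, her6, notch3 and sox9b. The labelled replicate 31 of 7 dpa was not read as a 3. Replicate numbers were not used to pair libraries in the main fit, and gene names came from the files. Results for some genes that met this rule are not reported here.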

Additional observations from a re-analysis of the deposited data

How the results depend on the processing

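Against 701 genes called (99 higher, 602 lower), DESeq2 size factors gave 370 (200 and 170), library size 427 (173 and 254) and the DESeq2 Wald test 318 (211 and 107). Without a filter on low counts 424 genes were called, 339 of them lower. The authors' background subtraction gave 230 (45 higher, 185 lower), a background profile taken off, added after seeing the data, 218 (31 and 187), a hepatocyte limit of 1% 303 (42 and 261), and thinning to at most 1000 UMIs 56 higher. Leaving out a library gave 360 to 685 genes, 75 to 100 higher and 285 to 585 lower, fewest without 7 dpa replicate 1. Gapdh turned to −0.56 after the authors' subtraction and to −0.29 with the profile taken off. With uninjured BECs as reference, apoea (2.72), fabp1b.1 (3.70), fabp2 (0.72), hpda (−0.36), igfbp1a (−0.74), krt18a.1 (−0.36) and krt8 (−0.16) changed sign. For hpda, krt18a.1 and krt8 the mean CPM at 7 dpa still lay above that of uninjured BECs. Only the main scaling was run with this reference, so the sign for these genes may depend on it. In that comparison 52 named genes kept their status, called or not called, and their direction. These include her6, notch3 and sox9b, which were called in neither comparison. Replicate numbers were used as labels only. Deviations of libraries with the same number correlated at −0.01 and −0.05, and at 0.01 for 31 with 3. At the depth of the 7 dpa sums such low values cannot decide whether libraries were paired. With a replicate block 569 genes were called (31 as its own number) or 712 (31 taken as 3). The first lost cebpb, cox6b2, cox7a2l, eif4a1b and vtna among named genes, the second eif4a1b. The fold of the BEC share depended on the minimum of UMIs and the hepatocyte limit, as given above. BECs were a smaller share at 7 dpa under every alternative run, the difference lying between −4.39 and −16.6 percentage points. The cause of these changes was not tested. At this depth 3 UMIs over the 7 dpa sums are worth 37.1 CPM.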
